A study of Mus musculus with 4 samples.

Results

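Fatty acids are the main fuel of the adult heart, and 45 genes that take them up, store them and oxidise them were followed here in single nuclei of mouse hearts. The 45 genes were a given list, matched by symbol to 45 of the 44628 gene identifiers in the files. The list follows gene function and no rule on measured values, but the genes were chosen with earlier results of these data known. They fall into 8 roles: 4 genes of uptake and binding, 5 of lipid droplets and lipolysis, 5 acyl-CoA synthetases, 6 of the carnitine shuttle, 13 enzymes of beta-oxidation, 3 of the electron transfer flavoprotein chain, 4 thioesterases and uncoupling proteins, and 5 regulators.

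Fatty acids reach a heart muscle cell from lipoproteins and albumin through the vessel wall, are bound inside the cell by small carrier proteins, and are joined to coenzyme A before they are stored as triglyceride or burned. Long chains enter the mitochondrion as carnitine esters, and beta-oxidation then shortens them while passing electrons to the respiratory chain. The nuclear receptor PPAR-alpha, the estrogen-related receptors and the PGC-1 co-activators are known to switch on many of these genes together.

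The hearts came from mice of 8 weeks treated with tamoxifen and were collected 2 weeks after the injection. The control libraries are titled MCM cre/+ and carry the genotype label wt, and the libraries called cKO here are titled PKP2fl/fl MCM cre/+. By these titles both groups carry the Cre line, which the label wt of the controls does not show. Pkp2 encodes plakophilin 2, a desmosome protein that ties heart muscle cells to each other, and fl/fl marks both copies as flanked for removal by Cre. Each library was made from a pool of 2 hearts, 1 of a male and 1 of a female mouse, and there were 2 libraries per group. The sources used here do not name the promoter that drives the Cre. The sample label for cell type reads cardiomyocyte, although each library also held fibroblasts, endothelial nuclei, mural nuclei and macrophages by their markers.

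The libraries held 5947 to 14238 barcodes and 13491201 to 40536562 UMIs (unique molecular identifiers, each a counted RNA molecule), and 18784 nuclei passed the filters. Cardiomyocytes gave 1186 to 2559 nuclei and 5061576 to 11141419 UMIs per library, and the other 4 classes 260556 to 3780188 UMIs. Their median UMI count per nucleus was 3161 and 3954 in control and 4302.5 and 5293 in cKO cardiomyocytes. Any pair of libraries shared 0 to 2 barcodes. Pkp2 itself was not lower in the cardiomyocytes of the cKO libraries: it measured 565 and 553 CPM in the controls (counts scaled to the same total in each library and class) and 619 and 592 CPM in cKO (log2 fold change 0.12, SE 0.14, adjusted p = 0.798). Since no label names the flanked exons, this count does not check the deletion, and the groups go by their labels. Esr1, the estrogen receptor gene, measured 76.4 and 64.4 CPM in control and 3593 and 3329 CPM in cKO cardiomyocytes. Tamoxifen-inducible Cre proteins carry part of an estrogen receptor; whether these counts come from a transgene was not tested, and a difference between the groups in such a transgene cannot be told apart from one in Pkp2.

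Most of the 45 genes were highest in heart muscle. Over the 2 control libraries, the mean level was highest in cardiomyocytes for 33 genes, in endothelial nuclei for 5, in macrophages for 5, and in fibroblasts and mural nuclei for 1 each. The 33 were highest there in both control libraries. Cd36, the membrane protein that takes up long-chain fatty acids, measured 1580 CPM in endothelial nuclei and 1416 CPM in cardiomyocytes. Fabp4, a fatty acid binding protein of capillary endothelium and fat, measured 508 CPM in endothelial nuclei against 20.8 CPM in cardiomyocytes. Lipe, the hormone-sensitive lipase, measured 143 CPM against 40.1 CPM in the same 2 classes. Fabp4 and Lipe were well above the cardiomyocyte level in both control libraries. Cd36 was above it in control 1, at 126% of the cardiomyocyte level, and level with it in control 2, at 100%.

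Macrophages were highest for Cpt1a, the carnitine palmitoyltransferase of liver and immune cells (149.3 CPM, with 69.9 CPM in cardiomyocytes). They were also highest for Acsl3 (22.2 and 3.94 CPM), Acsl4 (98.6 and 14.0 CPM), Acads, the short-chain acyl-CoA dehydrogenase (12.8 and 11.5 CPM), and the uncoupling protein Ucp2 (174 and 6.14 CPM). Fibroblasts were highest for the peroxisomal thiolase Acaa1a (27.0 and 12.7 CPM). Acsl5 and the mitochondrial thioesterase Acot2 had their highest mean in endothelial nuclei (32.4 and 7.61 CPM), but in 1 of the 2 control libraries another class was higher. Acot1, its cytosolic relative, was highest in mural nuclei at 5.71 CPM, where it did not pass the filter on low counts.

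**Figure D1:**
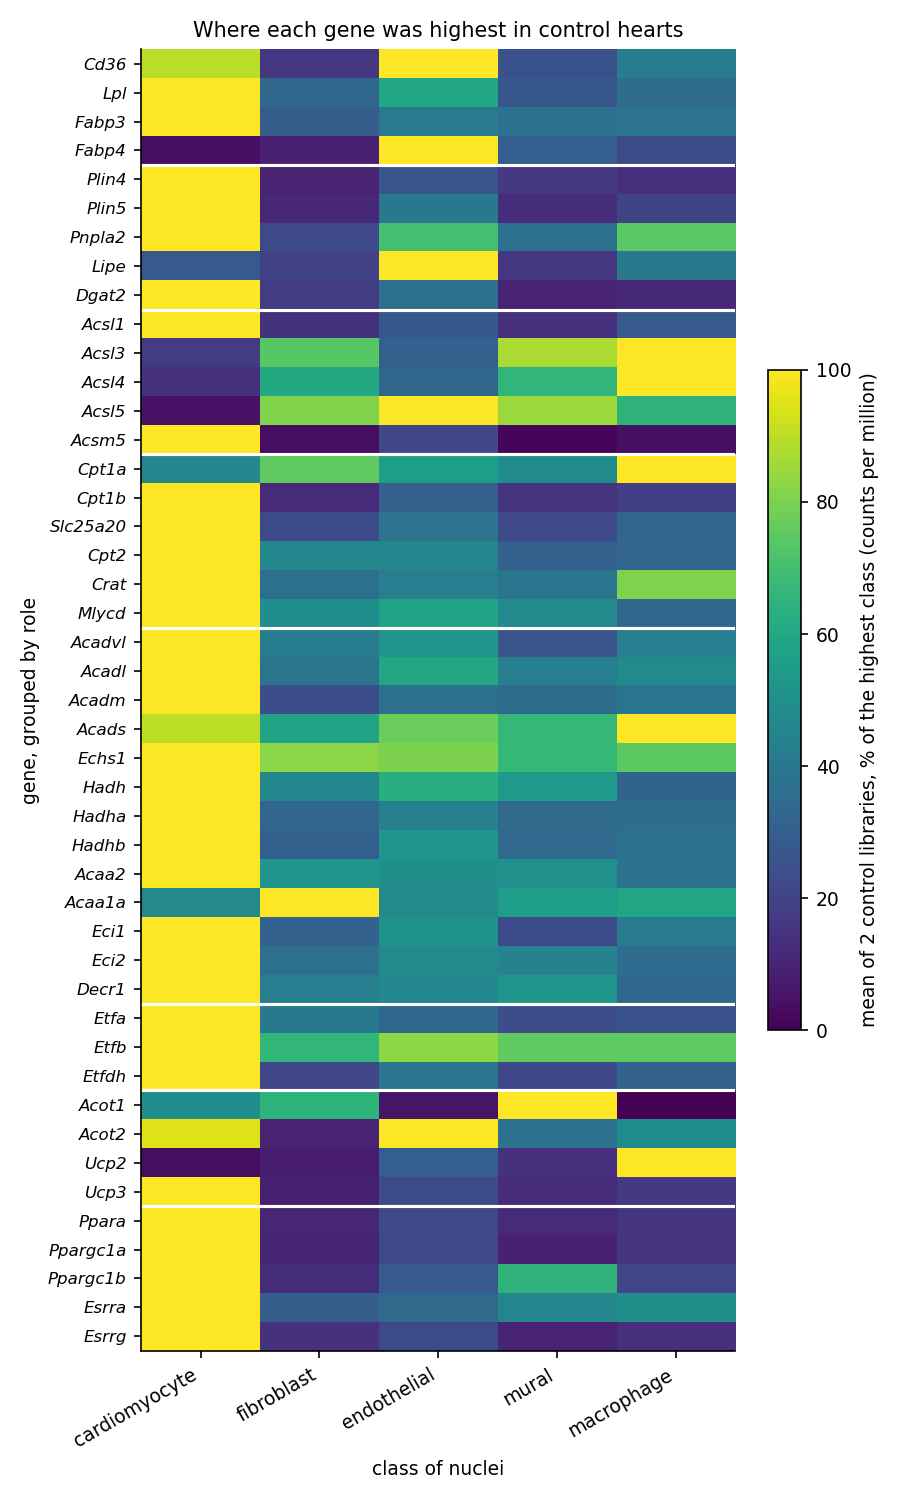
Mean level of each gene (rows, grouped by role and split by white lines) in 5 classes of control nuclei (columns), as a percent of the gene's highest class. The cardiomyocyte column is at 100% for 33 of 45 genes, while Cd36, Fabp4 and Lipe peak in endothelial nuclei and Ucp2, Acsl4 and Cpt1a in macrophages.

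The markers of cardiomyocytes were also counted in every other class. The 15 cardiomyocyte markers, among them Ttn and Myh6, summed to 77036 and 77103 CPM in control and 74843 and 74103 CPM in cKO cardiomyocytes. In endothelial nuclei they still summed to 23003 and 16117 CPM in the controls and to 11783 and 7830 CPM in cKO. In fibroblasts the sums were 10815 and 7777 CPM against 7581 and 5907 CPM, in macrophages 13793 and 11768 against 7681 and 7426 CPM, and in mural nuclei 8597 and 10939 against 9614 and 11596 CPM. None of the 15 markers was at 0 in these 4 classes.

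In cardiomyocytes, 6 of the 45 genes fell in cKO and none rose; DESeq2 called no rise either. They were Acsm5, Eci2, Lipe, Dgat2, Ucp3 and Slc25a20, and Acsm5 had the largest fall, from 25.1 ± 4.64 to 3.08 ± 0.171 CPM (mean ± SD, n = 2 libraries). Calls are from edgeR's quasi-likelihood test with Benjamini-Hochberg adjustment over all genes. Of all 15401 genes tested 1.56% fell and 1.30% rose, so that the 6 of 45, or 13.3%, were a larger share than among all genes. The median log2 fold change of the 45 was -0.24, and that of all genes was 0.0024. Both cKO libraries were below both controls for 25 of the 45 genes (21.1% of all genes) and above both for 3 (22.2% of all genes). All 45 genes passed the filter on low counts in this class.

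**Figure D2:**
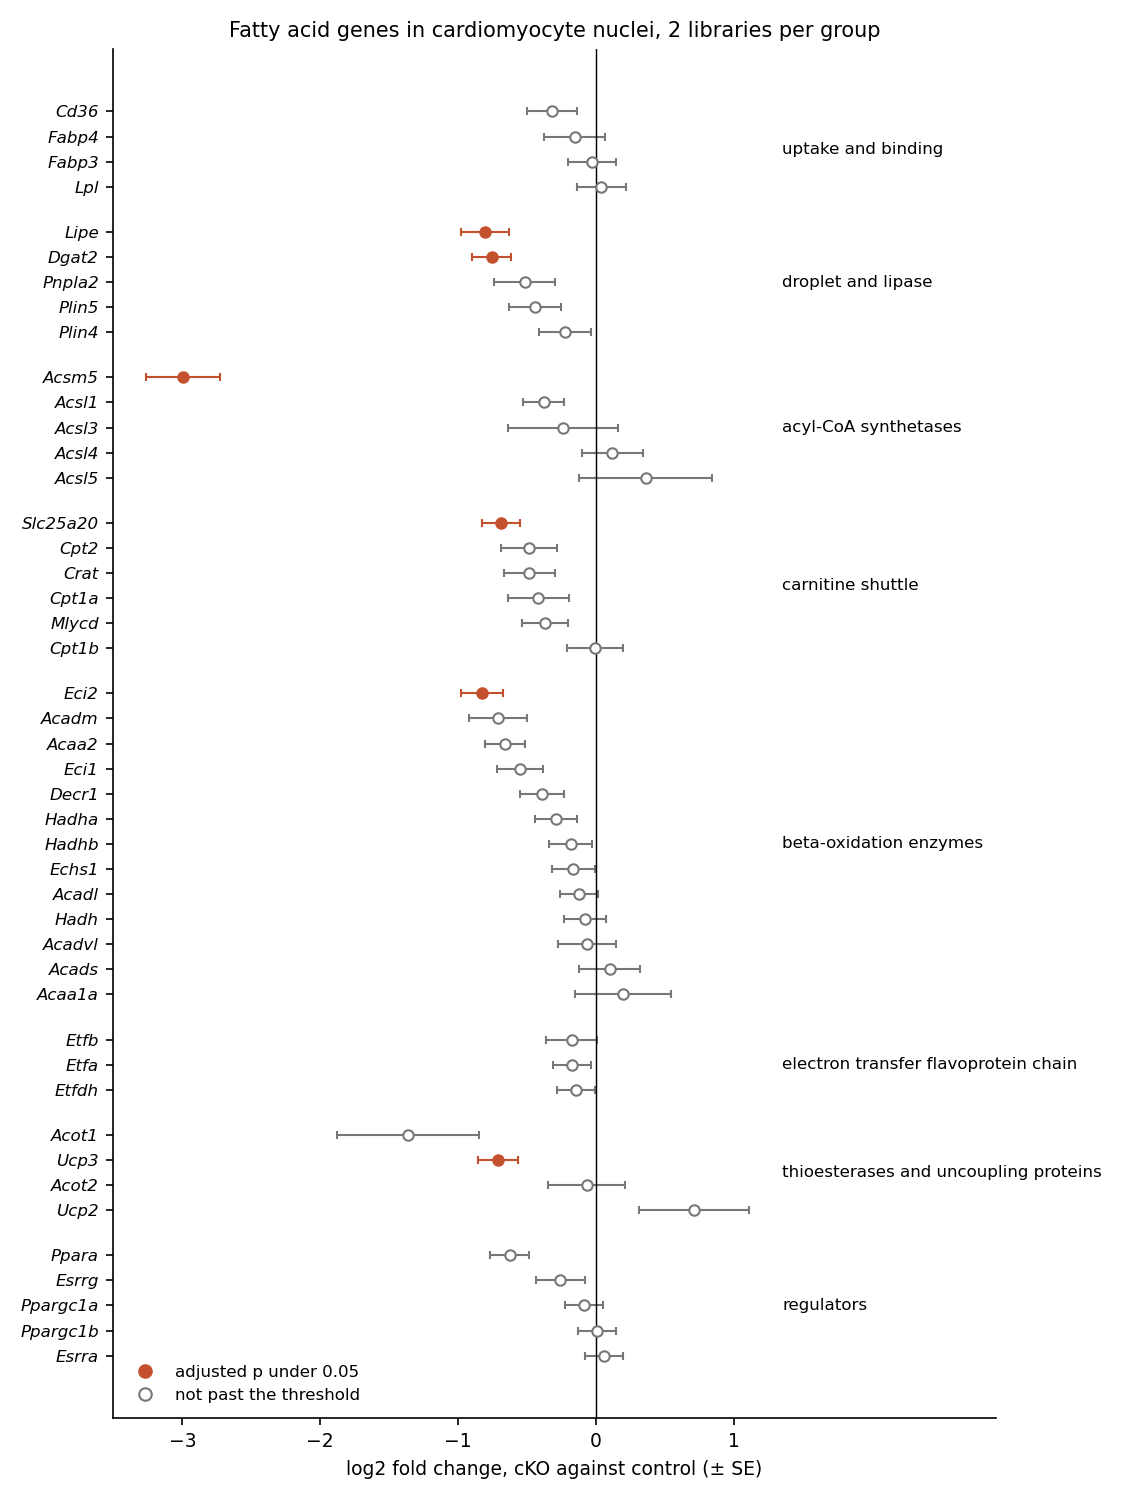
Log2 fold change (cKO against control, with SE) of each gene in cardiomyocytes, grouped by role, from 2 libraries per group. Filled points passed the adjusted p threshold of 0.05: 6 genes, all below 0, with Acsm5 at -2.996 and the others between -0.83 and -0.69.

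The genes of uptake and binding showed no called change in heart muscle. Cd36 measured 1257 and 1642 CPM in control and 1052 and 1272 CPM in cKO cardiomyocytes, so the groups overlapped (log2 fold change -0.32, SE 0.18, adjusted p = 0.494). Fabp4 measured 23.5 and 18.9 CPM against 21.5 and 16.6 CPM (-0.15, SE 0.22). The values of Lpl, the lipoprotein lipase that frees fatty acids from circulating triglyceride, and of Fabp3, the fatty acid carrier of heart muscle, lay close to 0 at 0.04 and -0.03.

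Of the 5 droplet and lipase genes 2 fell and all 5 had negative log2 fold changes, with a median of -0.52. Lipe measured 40.8 and 41.2 CPM in control and 22.2 and 24.5 CPM in cKO cardiomyocytes (log2 fold change -0.81, SE 0.17, adjusted p = 0.0458). Dgat2, which adds the last fatty acid in triglyceride synthesis, measured 124 and 115 CPM against 69.7 and 71.4 CPM (-0.76, SE 0.14, adjusted p = 0.0250). The 2 control libraries were close to each other for both genes, and the cKO libraries lay well below them. Pnpla2, the lipase of the first step of triglyceride breakdown, measured 71.9 and 48.2 CPM against 46.4 and 37.1 CPM and did not pass (-0.52, SE 0.22, adjusted p = 0.329). Plin5, a droplet coat protein of oxidative tissue, measured 37.4 and 31.5 against 27.4 and 23.2 CPM (-0.44, adjusted p = 0.334). Plin4, another coat protein, overlapped between the groups (-0.22). The 8 adipocyte markers together gave 1.19 to 3.00 CPM in the cardiomyocytes of the 4 libraries, with 2 to 6 of the 8 at 0.

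Among the 5 acyl-CoA synthetases, which charge fatty acids with coenzyme A, Acsm5 fell. Acsm5 is a mitochondrial synthetase for medium chains. It measured 28.3 and 21.8 CPM in control cardiomyocytes and 2.96 and 3.20 CPM in cKO, from 141 and 236 UMIs against 16 and 27 UMIs. The 2 groups are far apart, and the log2 fold change was -2.996 (SE 0.27, adjusted p = 0.00129). Acsl1, the main long-chain synthetase of heart muscle, measured 473 and 524 CPM against 357 and 410 CPM, apart but not past the threshold (-0.38, SE 0.15, adjusted p = 0.288). Acsl5 gave only 5 to 23 UMIs per library (0.36, SE 0.48), and Acsl3 and Acsl4 had values of -0.24 and 0.12.

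In the carnitine shuttle 1 of 6 genes fell, and the median of the 6 was -0.45. Slc25a20, the carrier that exchanges acylcarnitine for carnitine across the inner mitochondrial membrane, measured 131 and 132 CPM in control and 82.9 and 80.4 CPM in cKO cardiomyocytes (-0.69, SE 0.14, adjusted p = 0.0334). Replicates of a group differed by far less than the groups did. Cpt2, which turns the imported ester back into acyl-CoA, measured 84.2 and 58.2 CPM against 55.5 and 45.8 CPM (-0.49, SE 0.21, adjusted p = 0.325). Crat, the carnitine acetyltransferase, measured 118 and 92.7 against 85.1 and 65.5 CPM (-0.48, adjusted p = 0.274). Cpt1a (-0.42) and the malonyl-CoA decarboxylase Mlycd (-0.37) did not pass either. Cpt1b, the muscle form of the rate-limiting palmitoyltransferase, measured 574 and 429 against 582 and 418 CPM, with full overlap (-0.0041, SE 0.20).

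Of the 13 enzymes of beta-oxidation 1 fell. Eci2, an enoyl-CoA isomerase that lets unsaturated fatty acids pass through the cycle, measured 162 and 135 CPM in control and 80.3 and 86.3 CPM in cKO cardiomyocytes (-0.83, SE 0.15, adjusted p = 0.0237). Its groups did not overlap. Acadm, the medium-chain acyl-CoA dehydrogenase, measured 514 and 357 CPM against 304 and 228 CPM, with a spread within each group that left it short of the threshold (-0.71, SE 0.21, adjusted p = 0.139). Acaa2, the mitochondrial thiolase, measured 112 and 113 against 66.2 and 75.8 CPM and missed it narrowly (-0.66, SE 0.15, adjusted p = 0.0522). The related isomerase Eci1 (-0.55), the dienoyl-CoA reductase Decr1 (-0.39) and Hadha, a subunit of the trifunctional protein (-0.29), were lower in both cKO libraries without passing. The other 7 were Hadhb (-0.18), Echs1 (-0.17), Acadl (-0.12), Hadh (-0.082), Acadvl (-0.063), Acads (0.10) and Acaa1a (0.20). Over all 13, both cKO libraries were below both controls for 8 (21.1% of all genes) and above both for 1 (22.2% of all genes).

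The 3 genes of the electron transfer flavoprotein chain, which hands electrons from the dehydrogenases to ubiquinone, moved little. Etfb measured 31.8 and 27.5 CPM against 27.0 and 25.3 CPM (-0.18, SE 0.18), and Etfa 387 and 364 against 341 and 325 CPM (-0.17, SE 0.14). Etfdh, the membrane oxidoreductase, stood at -0.15. In each of the 3 both cKO libraries were below both controls, and none passed.

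Ucp3, the uncoupling protein of muscle mitochondria that is induced by fatty acids, was the 1 of 4 thioesterase and uncoupling genes that fell. It measured 174 and 152 CPM in control and 101 and 97.7 CPM in cKO cardiomyocytes (-0.71, SE 0.14, adjusted p = 0.0336). Acot1 had a log2 fold change of -1.36 on only 3 to 34 UMIs per library and did not pass (2.61 and 3.14 against 0.555 and 1.54 CPM, SE 0.52, adjusted p = 0.270). Of the 50-base stretches of its transcripts 13.6% occur unchanged in Acot2, so reads of these 2 genes may be counted for either. Acot2 stood at -0.067. Ucp2 had the highest estimate of the 45, 0.71, from 7.84 and 4.70 against 13.5 and 6.76 CPM, with overlapping groups (adjusted p = 0.479).

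None of the 5 regulators passed the test in heart muscle. Ppara, which encodes PPAR-alpha, measured 830 and 870 CPM in control and 539 and 563 CPM in cKO cardiomyocytes, and the groups were well apart (-0.63, SE 0.14, adjusted p = 0.0572). Esrrg, an estrogen-related receptor, measured 1201 and 1469 against 984 and 1249 CPM, with overlap (-0.26, SE 0.18, adjusted p = 0.600). The co-activators Ppargc1a (-0.087) and Ppargc1b (0.0081) and the receptor Esrra (0.057) lay close to 0, each with an SE of 0.14.

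**Figure D3:**
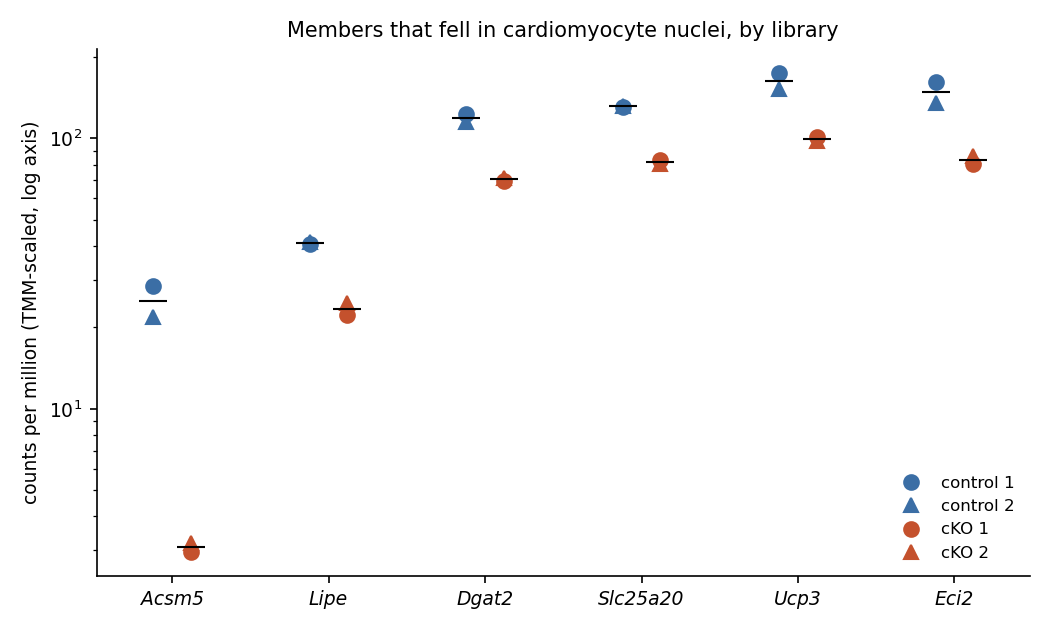
CPM (log axis) of the 6 genes that fell in cardiomyocytes, by library, with a line at the mean of each group. The 2 cKO points lie below the 2 control points for each gene, and the distance is largest for Acsm5 (28.3 and 21.8 against 2.96 and 3.20 CPM).

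Leaving out 1 library, which leaves a group with 1, ended calls but left the sizes similar. The log2 fold changes of the 5 smaller falls then lay between -0.96 and -0.61. The number of genes that fell was 1 without control 1, 6 without control 2 (with Acadm and Pnpla2 in place of Lipe and Slc25a20), and 2 each without cKO 1 and without cKO 2. Acsm5 was called in all 4 of these, and in 18 of its 19 alternatives, with log2 fold changes between -3.19 and -2.72, while Lipe and Slc25a20 were called in none of the 4. By DESeq2, 9 genes fell, the 6 with Acadm, Acaa2 and Ppara, and 3.94% of all genes with an adjusted p changed in either direction. Reads on the opposite strand may add to 4 of the 6, because the GENCODE M21 annotation (GRCm38, the assembly of the mm10 build) places Pdilt across Acsm5 and an antisense RNA across each of Lipe, Eci2 and Ucp3, and the sources used here do not state how strand was handled. Acsm5 lies on chromosome 7 at 119519463 to 119545551, Eci2 on chromosome 13 at 34977748 to 35027096, and Slc25a20 on chromosome 9 at 108662088 to 108684641. Lipe, Dgat2 and Ucp3 lie on chromosome 7, at 25379527 to 25398710, 99153658 to 99182719 and 100472990 to 100486432.

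Nearly all cardiomyocytes lay in 3 clusters whose mix differed between the groups, so each fall was also read within them. Cluster 1, led by Myh7, Esr1, Xirp2 and Nppb, took 10.5% and 9.38% of the cardiomyocytes in the control libraries, against 67.3% and 69.7% in cKO. Clusters 0 and 4 held nearly all the others. Acsm5 was low in cKO in each cluster: 26.1 and 13.9 CPM against 2.01 and 3.33 in cluster 0, 30.3 and 26.3 against 3.52 and 3.17 in cluster 4, and 27.0 and 19.97 against 3.25 and 3.29 in cluster 1. The cKO values of clusters 0 and 4 rest on 1 to 4 UMIs per library. Slc25a20, Dgat2 and Eci2 were also lower in both cKO libraries than in both controls in each of the 3 clusters, with ratios of the group means, cKO to control, from 0.61 to 0.80.

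For Ucp3 and Lipe this did not hold in every cluster. In cluster 1 Ucp3 measured 98.3 and 81.5 CPM in control and 90.3 and 84.7 CPM in cKO, and Lipe 15.9 and 24.96 against 19.0 and 21.1 CPM, so the groups overlapped. In cluster 0 the control levels were higher, at 200 and 169 CPM for Ucp3 and 43.6 and 48.5 CPM for Lipe. The cKO values there were 143 and 150 CPM for Ucp3 and 37.2 and 41.6 CPM for Lipe. In cluster 4 Lipe was below both controls in both cKO libraries (41.5 and 37.0 against 24.6 and 33.3 CPM), while Ucp3 overlapped (165 and 150 against 155 and 131 CPM). Tested within cluster 0 alone, an alternative chosen after seeing the data, with 42 of the genes tested, none passed (50 of 10688 genes did, 0.468%). Acsm5 was at -2.85 there with an adjusted p of 0.0504, and Eci2, Slc25a20, Dgat2, Ucp3 and Lipe were at -0.70, -0.58, -0.51, -0.37 and -0.27.

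**Figure D4:**
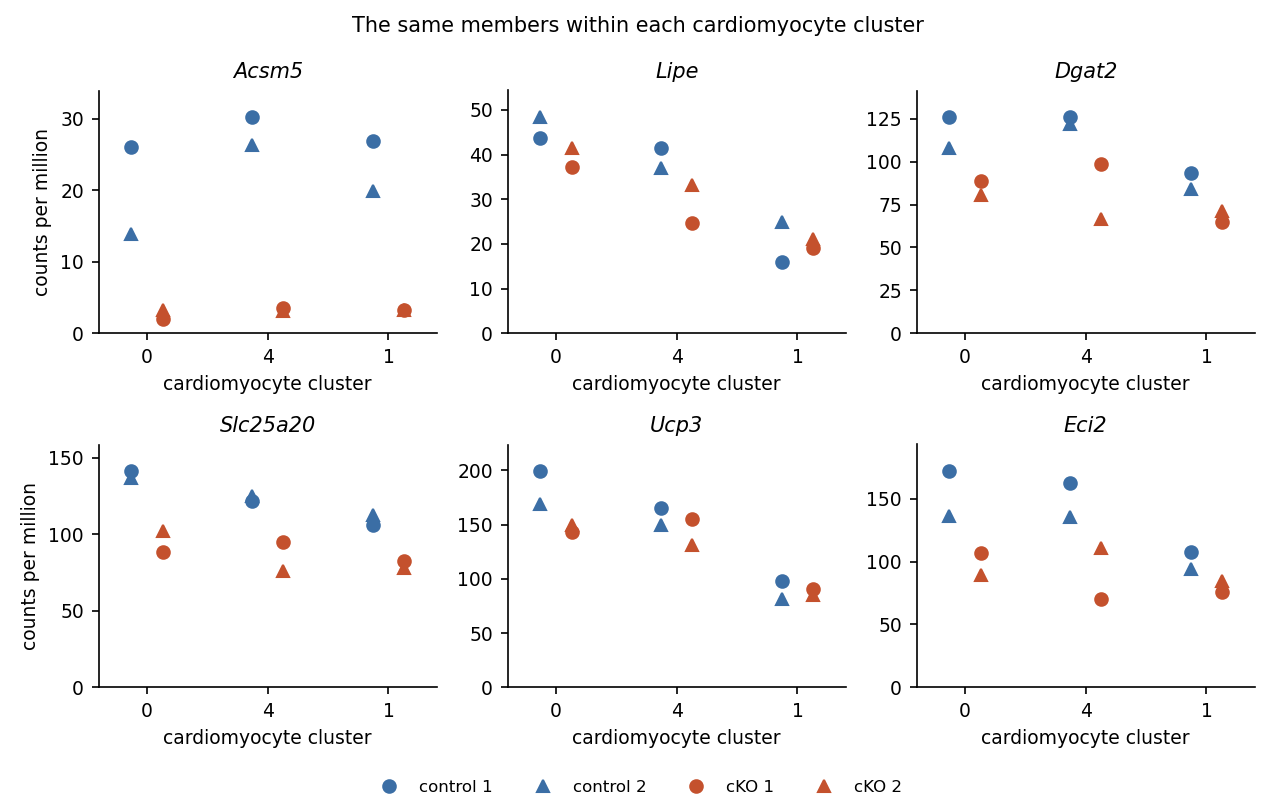
CPM of the 6 genes in the 4 libraries (points) within cardiomyocyte clusters 0, 4 and 1, with cluster 1 the one that holds most cKO cardiomyocytes. Acsm5 is low in cKO in each cluster, whereas Ucp3 and Lipe are low in cluster 1 in both groups.

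Nuclei with and without Esr1 UMIs were compared, because 12.5% and 14.5% of control but 67.2% and 72.7% of cKO cardiomyocytes had one. The Acsm5 level of cKO nuclei was 3.02 and 3.18 CPM with and 2.96 and 3.33 CPM without an Esr1 UMI. When nuclei with an Esr1 UMI were left out, 10 genes fell: the 6, with Acaa2, Acadm, Eci1 and Ppara. In that fit 5.5% of all genes changed in either direction. When nuclei with a UMI of Nppb, the natriuretic peptide gene of strained heart muscle, were left out instead, Acsm5 and Eci2 fell and the other 4 did not pass, and 1.39% of all genes changed. Nppb UMIs were present in 23.2% and 19.1% of control and 66.5% and 64.2% of cKO cardiomyocytes.

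The 300 bases around the annotated starts, 250 before and 50 after, were searched for the binding motifs of the regulators, which are known to bind genes of this pathway. RefSeq promoters (GRCm38.p6) were found for 37 of the 45 genes. The extended half-site of the estrogen-related receptors, TNAAGGTCA, was in none of these 37 genes on either strand, and in 1.43% of all 27025 genes. The direct repeat bound by PPAR with RXR, with 1 base between the repeats, was in none either, and in 0.451% of all genes. With shares this low over all genes, finding none among 37 says little about them. The half-site AGGTCA, part of the first motif, was searched after the others had been seen to be absent. It was in 7 of the 37 genes (18.9%), against 18.1% of all genes: Acadm, Acadvl, Cd36, Cpt1a, Echs1, Plin5 and Ucp3. Dgat2 is among the 8 genes with no promoter entry. Among the other 5 genes that fell it was found in Ucp3 alone, at positions -149 and -44 from the start, on the strand of the gene. The 2 stretches of 100 bases that follow end at a start and lie almost wholly outside annotated exons. They set a fallen gene with the half-site beside one without it, read 5′ to 3′ on the strand of the gene, with the half-site in capitals. The window of Ucp3 is chr7:100472891-100472990 on the plus strand, and that of Lipe, at the second of its listed starts, is chr7:25390113-25390212 on the minus strand.
Ucp3: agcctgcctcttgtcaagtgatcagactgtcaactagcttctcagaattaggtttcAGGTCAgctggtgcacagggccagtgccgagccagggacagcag
Lipe: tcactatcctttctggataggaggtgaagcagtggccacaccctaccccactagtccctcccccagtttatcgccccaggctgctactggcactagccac

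Around the 45 genes, a list of 92 further genes of lipid and ketone metabolism was followed in cardiomyocytes. Of the 88 tested 3 rose, while 1.30% of all genes rose, and the median log2 fold change of the 88 was 0.013. Bdh1, which interconverts the main ketone bodies, rose from 11.1 and 10.8 CPM to 30.7 and 30.9 CPM (1.498, SE 0.19, adjusted p = 0.00499). Prkab2, a subunit of the energy sensor AMPK, rose from 52.7 and 46.8 to 111 and 88.8 CPM (1.01, adjusted p = 0.0155). Perm1, a muscle co-factor of the estrogen-related receptors, rose from 37.0 and 32.3 to 77.1 and 56.1 CPM (0.94, adjusted p = 0.0379). For each of these 3 genes both cKO libraries were above both controls. None of 9 tested genes of membrane uptake, 13 of triglyceride synthesis and droplets, 19 further mitochondrial enzymes or 13 of peroxisomal oxidation passed by edgeR, and 2, 4, 5 and 3 of them had an unadjusted p under 0.05 (14.3% of all genes did). The median of the peroxisomal genes was -0.27 and that of the triglyceride and droplet genes 0.21.

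In the 3 classes of fibroblasts, mural nuclei and macrophages no gene of the 45 passed the test by edgeR, nor by DESeq2. In fibroblasts 41 of the 45 genes were tested, with a median of -0.19, and 5 had an unadjusted p under 0.05 (14.0% of all genes), while 3.79% of all genes changed. In macrophages 41 were tested, with a median of -0.21, and 6 had such a p (11.7% of all genes), while 0.952% of all genes changed. In mural nuclei 38 were tested, with a median of 0.06, none had such a p (5.25% of all genes), and 0.116% of all genes changed. Acsm5, Acot1 and Acot2 did not pass the filter on low counts in any class but cardiomyocytes, nor did Plin5 in these 3 classes, and Dgat2, Acads and Acaa1a in mural nuclei. The cardiomyocyte markers had medians of -0.52, -0.73 and 0.03 in the same 3 classes, each of the same sign as that of the members. Nuclei with at most 1% of UMIs from the markers were also tested alone, a split chosen after seeing the data. The medians of the genes were then -0.078 in fibroblasts (39 tested), 0.098 in macrophages (37) and 0.068 in mural nuclei (28). For these same genes the medians over all nuclei of the class were -0.19, -0.21 and -0.0062.

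In endothelial nuclei 3 of the 42 tested genes fell, all of them regulators (1.20% of all genes fell, 0.452% rose). Ppara measured 232 and 152 CPM in control and 77.8 and 62.3 CPM in cKO (-1.43, SE 0.26, adjusted p = 0.00944). Esrrg measured 343 and 269 against 156 and 115 CPM (-1.18, SE 0.24, adjusted p = 0.0170), and Ppargc1b 151 and 87.9 against 47.9 and 45.7 CPM (-1.29, SE 0.27, adjusted p = 0.0205). For each of the 3, both cKO libraries were below both controls. Dgat2 measured 57.9 and 31.1 against 20.1 and 12.5 CPM and did not pass (-1.40, SE 0.37, adjusted p = 0.0650). The cardiomyocyte markers were lower as well: their median in endothelial nuclei was -1.02, and 7 of the 15 fell.

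The 3 genes lay within or close to the markers' range. In control 1 the markers stood in endothelial nuclei at 25.7% to 43.1% of their cardiomyocyte level, and Ppara, Esrrg and Ppargc1b stood at 27.4%, 28.1% and 37.1%. In cKO 2 the markers stood at 8.62% to 22.7% and the 3 genes at 10.7%, 8.90% and 10.3%. When endothelial nuclei with over 1% of UMIs from the markers were left out, the markers summed to 4354 and 4782 CPM in control and 4138 and 4387 CPM in cKO. In those nuclei Ppara was at -0.24 (SE 0.32), Esrrg at -0.29 (SE 0.29) and Ppargc1b at -0.80 (SE 0.41). None was past the threshold (adjusted p = 0.923, 0.888 and 0.662), and Dgat2 was at -1.16 (SE 0.59, adjusted p = 0.658). This fit used 206 and 631 control and 675 and 1548 cKO nuclei, and each SE was larger than over all endothelial nuclei. With these SEs a missed threshold does not show that a change is absent. The count of 3 also fell to 0 without cKO 2 and to 1 without control 1 (Ppara), and rose to 5 without control 2 and to 8 without cKO 1.

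**Figure D5:**
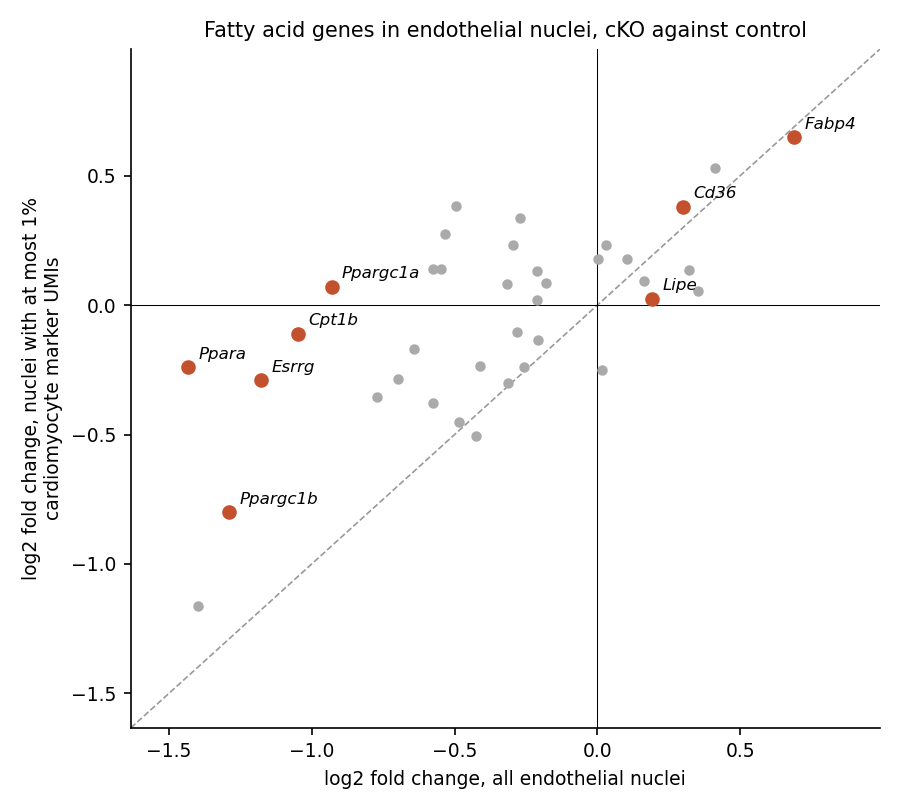
Log2 fold change of the genes in endothelial nuclei, for all nuclei (x axis) and for those with at most 1% of UMIs from cardiomyocyte markers (y axis), with the dashed line where both are equal. Ppara, Esrrg, Ppargc1a and Cpt1b move from below -0.9 to between -0.29 and 0.07, while Ppargc1b (-1.29 to -0.80) and Dgat2 (the unlabelled lowest point, -1.40 to -1.16) stay low and Fabp4 and Cd36 lie near the line.

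In endothelial nuclei 26 of the 45 genes stood above the highest of the 15 markers, as a percent of the cardiomyocyte level, in all 4 libraries. Of these, 25 were tested in this class (all but Acot2), with log2 fold changes of both signs, and none passed. Eci1 was at -0.70, Mlycd at -0.64 and Eci2 at -0.57, while Fabp4, Cd36 and Lipe were above 0. Fabp4 stood in endothelial nuclei at 2401% to 4670% of its cardiomyocyte level over the 4 libraries, Lipe at 343% to 760% and Cd36 at 100% to 191%. Fabp4 measured 575 and 481 CPM in control and 997 and 701 CPM in cKO endothelial nuclei (0.69, SE 0.25, adjusted p = 0.207). Cd36 measured 1616 and 1667 against 1999 and 2039 CPM (0.30, SE 0.24, adjusted p = 0.702), and Lipe 143 and 154 against 146 and 193 CPM (0.19, SE 0.23, adjusted p = 0.837). None of the 3 passed in this class. The groups of Fabp4 and Cd36 did not overlap, with cKO higher, and those of Lipe overlapped. Such a separation is common with 2 libraries per group: in cardiomyocytes it held for 22.2% of all genes. In the nuclei with few marker UMIs Fabp4, Cd36 and Lipe were at 0.65, 0.38 and 0.025.

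The difference between the 2 classes was then tested directly, with the library as a block because the classes share it. For 8 of the 45 genes the cKO effect differed between cardiomyocytes and endothelial nuclei (4.94% of all genes did). In 3 of them the effect was lower in cardiomyocytes: Lipe by a log2 difference of -1.07 (SE 0.19, adjusted p = 7.08e-06), Fabp4 by -0.89 (SE 0.21, adjusted p = 0.00115) and Cd36 by -0.68 (SE 0.21, adjusted p = 0.0247). These 3 were called in the low-marker endothelial nuclei too, at -0.91, -0.85 and -0.78. Of the 3, Lipe was the one that fell in cardiomyocytes. The 12 endothelial markers summed to 312 and 324 CPM in control cardiomyocytes, against 11223 and 11954 CPM in control endothelial nuclei. In cardiomyocytes this sum was lower in both cKO libraries than in both controls. Fabp4 had control means of 20.8 CPM in cardiomyocytes and 508 CPM in endothelial nuclei. How much of its cardiomyocyte count, and so of its difference, comes from endothelial RNA was not tested.

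In the other 5 the effect was higher in cardiomyocytes: Ppargc1b by 1.19, Cpt1b by 1.00, Esrrg by 0.85, Ppargc1a by 0.80 and Ppara by 0.72, with adjusted p from 1.41e-05 to 0.0225. In the low-marker endothelial nuclei none of these 5 passed, and 3 of them changed sign (Esrrg to -0.11, Ppargc1a to -0.17 and Ppara to -0.44). Without cKO 2, only Lipe of the 8 was still called, and without the library block none was.

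Between cardiomyocytes and fibroblasts 2 of the 45 effects differed (5.76% of all genes did). Eci2 measured 62.3 and 46.6 CPM in control and 59.0 and 56.0 CPM in cKO fibroblasts (0.13), against its fall in cardiomyocytes, a difference of -0.96 (SE 0.20, adjusted p = 0.00106). Etfdh measured 55.0 and 39.7 against 75.9 and 66.1 CPM in fibroblasts (0.64, adjusted p = 0.268) and -0.15 in cardiomyocytes, a difference of -0.84 (SE 0.21, adjusted p = 0.00774). In the low-marker fibroblasts the 2 differences were -1.04 and -0.81, both past the threshold. Without control 2 neither was called, and without cKO 1 only Eci2 was.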

How the data were processed

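Nuclei of 4 heart libraries (BD Rhapsody, sorted with an antibody to the nuclear pore, per the labels' protocols) were analysed from the deposited matrices, which hold whole-number UMI counts per gene and barcode. The build is mm10 per the submitters' processing notes, and the sources used here do not name the aligner or counter. Of the barcodes in a library 48.8% to 53.8% exceeded the mitochondrial limit.

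Nuclei with at least 300 genes, 500 UMIs and at most 5% mitochondrial UMIs were kept, without the top 0.5% by UMIs. Doublets were called with scrublet through scanpy 1.11.5: where the automatic threshold marked under 0.5% of nuclei (3 libraries) the top 6% by score were removed, and in cKO 2 the automatic 12.9%. Leiden clustering (leidenalg 0.10.2) used 2000 variable genes, 30 components, 15 neighbours, resolution 1 and seed 1. A cluster was named from at least 3 markers, each in at least 10% of its nuclei and 2-fold over the 25th percentile of clusters; 2.07% of nuclei stayed unnamed. The marker lists were set first, but this rule took its details from a look at the data.

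Counts were summed per library and class and tested with edgeR 4.0.16 in R 4.3.3 (TMM, filterByExpr, quasi-likelihood, adjusted p threshold 0.05 over all genes), with 2 libraries per group. CPM values are relative to the total of the class, TMM-scaled in tests, and unscaled for the comparison of classes, for clusters and for splits of nuclei. The difference of effects between classes was an interaction with the library as a block. The labels do not say that pools are separate litters or days, so p-values measure the spread between pools. DESeq2 1.42.0, other filters, scalings and subsets of nuclei, and leaving out each library were alternatives. The script was tested on simulated data (15107 genes, cardiomyocytes): 88% of genes changed by a log2 of 1 were recovered, and 100% of those changed by 2. Only genes above a set mean level were changed in the simulation, and all genes had the same dispersion. These shares therefore do not cover genes with low counts or changes below a log2 of 1. Members and lists were chosen with earlier results of these data known. In each role the genes past the threshold in cardiomyocytes were named with full values, then the 2 with the largest change among those that did not pass. Motif searches were on both strands. One result among the further genes of the pathway is not reported here.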

Additional observations from a re-analysis of the deposited data

Results flagged for a closer look

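For 10 genes the cKO effect differed between cardiomyocytes and another class by the interaction test in edgeR. Against fibroblasts, the log2 difference (cardiomyocyte effect minus the other) was -0.96 for Eci2 and -0.84 for Etfdh. Against endothelial nuclei it was -1.07 for Lipe, -0.89 for Fabp4, -0.68 for Cd36, 0.72 for Ppara, 0.80 for Ppargc1a, 0.85 for Esrrg, 1.00 for Cpt1b and 1.19 for Ppargc1b. The 5 positive differences did not pass in endothelial nuclei with at most 1% of UMIs from cardiomyocyte markers, where Cpt1b was at 0.093 and Ppargc1b at 0.72, and the 5 negative ones did pass in the low-marker nuclei of their class. The share of endothelial RNA in the cardiomyocyte count of Fabp4 was not tested.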

How the results depend on the processing

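With 2 libraries per group, leaving out 1 changes many calls. The number of genes that fell in cardiomyocytes (6) was 1 to 6 when each library was left out, 10 without nuclei with an Esr1 UMI, 2 without those with an Nppb UMI and 0 in the largest cluster alone. The 3 called in endothelial nuclei became 0 to 8 when each library was left out, 5 without the filter on low counts, 1 with 6% doublets removed in every library, and 0 at a mitochondrial limit of 1% or of 20%, at 1000 UMIs per nucleus, or in low-marker nuclei. In fibroblasts 3 passed at the 1% mitochondrial limit. For the other filters and the libraries left out, the share of all genes called is not given here. These counts therefore cannot be set against that share. The effects that differed from fibroblasts (2) numbered 1 to 5 when each library was left out and 4 with low-marker nuclei; those that differed from endothelial nuclei (8) numbered 2 to 7; with no library block both were 0. Fabp4 in cardiomyocytes turned positive at 0.14 (20% limit), 0.16 (no doublet removal), 0.035 (thinned nuclei), 0.086 (no Esr1 UMI), 0.058 (libraries clustered alone) and 0.052 (largest cluster), and ran from -0.34 to 0.024 when each library was left out (0.0056 without control 1, 0.024 without cKO 2). Replicate numbers are shared by the groups, but the labels give no pairing. Over genes, the log2 CPM difference between replicates 1 and 2 in control correlated with that in cKO, at 0.209 (mural) to 0.468 (cardiomyocytes). This correlation was 0.224 for macrophages, 0.341 for endothelium and 0.355 for fibroblasts. With the replicate block, 25 genes fell and 1 rose in cardiomyocytes (3925 of all genes changed, against 440), 7 changed in fibroblasts (17.7% of all genes did), 16 in endothelial nuclei (14.8%) and 2 in macrophages (6.14%), against 25.5% of all genes in cardiomyocytes. The causes were not tested. Low counts limit Acot1 and Acsl5.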
